A study of Homo sapiens with 6 samples.

Results

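Glycolysis and the tricarboxylic acid (TCA) cycle were examined through 41 genes, found as rows of the deposited count table whose Ensembl identifier carries one of 41 listed symbols for glucose transport, glycolysis, lactate handling, pyruvate entry and the TCA cycle. All 41 were present among 62703 rows, and all 41 had enough reads to test. The libraries were 3 of A549 cells in S-AlgLung hydrogel and 3 of A549 cells in AlgLung hydrogel. A549 is an established human lung adenocarcinoma line, and both groups share that single line and its serum-containing medium. The labels do not say what distinguishes the gels, though the series title concerns sulfation of the extracellular matrix, and nothing in them tells if the replicates came from different cultures. The p-values therefore cover the variation among these 6 libraries alone, part of which may be technical.

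In cells, glucose enters through facilitative GLUT transporters, is phosphorylated by hexokinase, and is split and oxidised to pyruvate. Lactate dehydrogenase turns pyruvate into lactate, which leaves through monocarboxylate transporters. Alternatively the pyruvate dehydrogenase complex, held in check by the PDK kinases, passes acetyl units to the mitochondrial TCA cycle. Many tumour cells make lactate even when oxygen is present, and several of these genes are textbook targets of the hypoxia-inducible factor HIF-1.

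Total counts ran from 24132875 to 26495444 in S-AlgLung and from 22978408 to 23682120 in AlgLung. S-AlgLung replicate 3 stood apart: the nuclear-retained RNAs MALAT1 and NEAT1 took 0.0264% of its counts, against 0.00398% to 0.00736% in the other 5 libraries. Of the 9 epithelial and A549 markers, KRT8, KRT18, KRT19, NQO1, AKR1B10, AKR1C1 and AKR1C2 were abundant, CDH1 was moderate, and the epithelial adhesion gene EPCAM was low, at 2.99, 3.08 and 5.40 CPM in S-AlgLung and 2.34, 1.53 and 1.99 CPM in AlgLung. CPM here are counts scaled to a common library size by TMM, which corrects each library for its composition. The 9 markers summed to 13022 to 23145 CPM in S-AlgLung and 18298 to 23826 CPM in AlgLung. Markers of other cell types were scarce. The 8 fibroblast markers summed to 8.28 to 10.2 CPM in S-AlgLung and 9.58 to 9.85 CPM in AlgLung, and the 5 endothelial markers to 3.17 to 3.80 and 2.34 to 3.68 CPM in the same order of gels. The 6 leukocyte markers summed to 44.3 to 71.4 CPM in S-AlgLung and 30.9 to 38.1 CPM in AlgLung. CD14 accounted for nearly all of that sum and was called higher in S-AlgLung (log2 fold change 0.85, edgeR adjusted p = 0.0225), the pan-leukocyte gene PTPRC was at 0 in 5 of the 6 libraries, and MRC1 was at 0 in all 6. The part of these markers in the values below was not tested.

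None of the 41 genes passed the test between S-AlgLung and AlgLung. At an adjusted p under 0.05 in edgeR's quasi-likelihood test, 0 were higher and 0 were lower, against 3.15% higher and 1.99% lower (5.14% in either direction) among all 18544 tested genes. The DESeq2 Wald test, which called 5.35% of all tested genes, and limma-voom also called 0 of the 41. In the DESeq2 Wald test the adjusted p was 0.0605 for IDH1, the smallest of the 41, and 0.0608 for PFKFB3. In limma-voom the smallest was 0.194. At an unadjusted p under 0.05, 4 of the 41 differed (PFKFB3, ALDOC, IDH1 and SUCLA2), beside 14.9% of all tested genes. The median log2 fold change (S-AlgLung over AlgLung) was 0.03 over the 41 genes, with 22 above 0 and 19 below, and 0.03 over all tested genes. Without S-AlgLung replicate 3 these medians were 0.085, with 23 of the 41 above 0, and -0.046. With all 6 libraries, the single values ran from -0.59 for IDH1 to 0.65 for ALDOC, with standard errors of 0.21 to 0.33. Among the 9338 genes tested at or above the level of the least abundant of the 41, the smallest log2 difference called was 0.70 in size. In simulated counts drawn for each gene independently from its estimated spread, 52.7% of genes changed 2-fold and 13.3% of genes changed 1.5-fold were recovered. Those counts lacked deviations that genes share within a library, and 200 genes were changed in each set. The recovered shares need not hold for the real libraries. A bulk measurement of this kind cannot tell fewer cells expressing a gene from less RNA per cell.

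**Figure D1:**
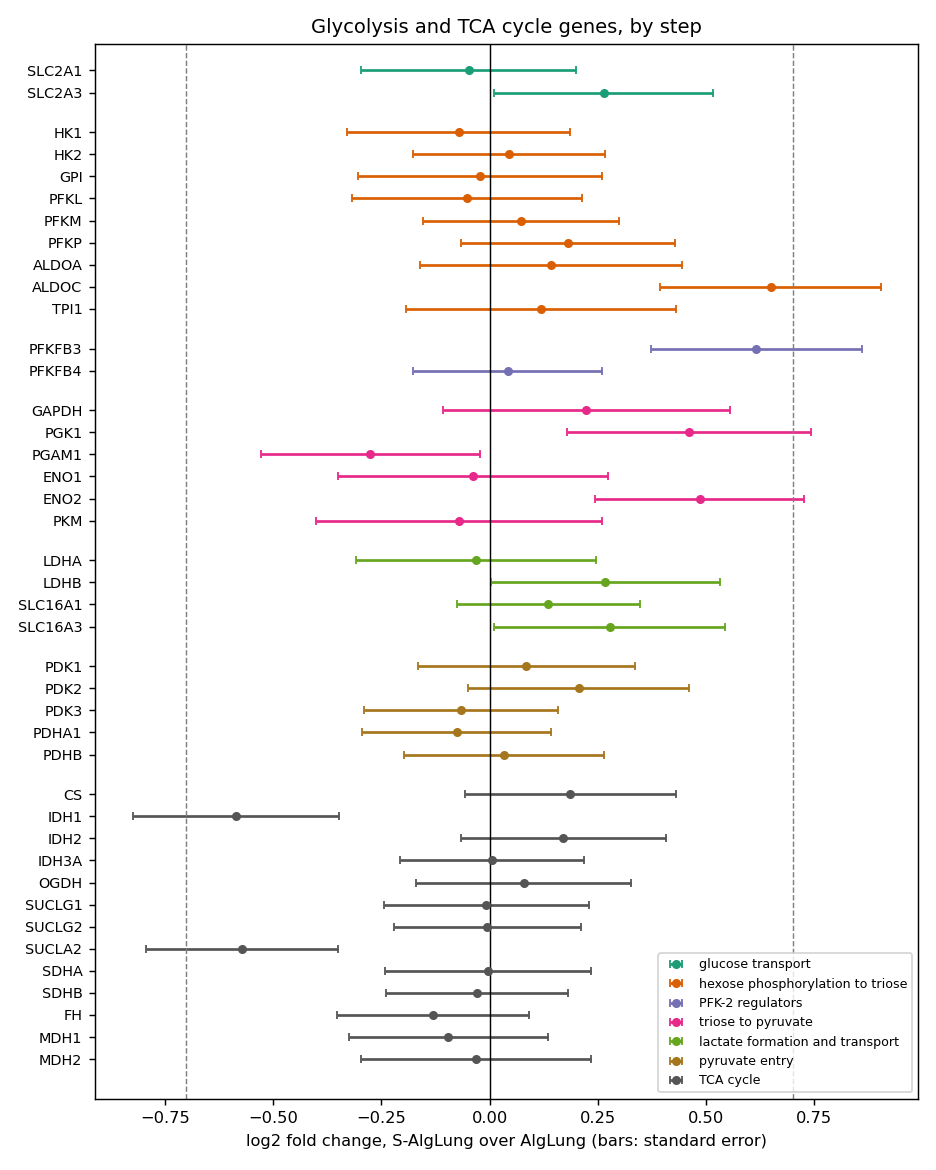
Log2 fold change of each of the 41 genes (x axis, S-AlgLung over AlgLung) with its standard error as a bar, grouped by step from top to bottom. Dashed lines mark 0.70 on either side of 0, the smallest difference called among genes at least as abundant; no point lies beyond them, and ALDOC, PFKFB3, IDH1 and SUCLA2 lie nearest.

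In 4 of the 41 genes the 3 S-AlgLung values did not overlap the 3 AlgLung values. PFKFB3 and ENO2 were higher in every S-AlgLung library, where 10.4% of all tested genes were. IDH1 and SUCLA2 were lower in every S-AlgLung library, where 8.05% of all tested genes were. With 2 of 41 genes in each direction, both counts lie below the background share, as does 4 of 41 beside 18.4% of all tested genes in either direction. The upstream sequence of these 4 genes is shown because they are the ones whose gels separated. Each run is the 250 bases before the annotated start of the gene in RefSeq (GRCh38.p14), read 5′ to 3′ on the strand of the gene, and capitals mark ACGTG or its reverse complement CACGT, the core of the HIF-1 response element, which also lies within the E-box CACGTG. The windows are chr10:6144671-6144920 on the plus strand for PFKFB3, chr12:6914330-6914579 on the plus strand for ENO2, chr2:208254459-208254708 on the minus strand for IDH1 and chr13:48001274-48001523 on the minus strand for SUCLA2. Those of ENO2, IDH1 and SUCLA2 lie within the Ensembl spans of the counted genes, which begin farther upstream than the RefSeq start.
PFKFB3: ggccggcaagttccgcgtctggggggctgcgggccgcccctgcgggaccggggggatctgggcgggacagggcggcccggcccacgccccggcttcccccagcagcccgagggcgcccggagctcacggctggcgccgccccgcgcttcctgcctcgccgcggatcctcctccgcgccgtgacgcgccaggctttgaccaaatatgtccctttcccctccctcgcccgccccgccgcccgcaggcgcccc
ENO2: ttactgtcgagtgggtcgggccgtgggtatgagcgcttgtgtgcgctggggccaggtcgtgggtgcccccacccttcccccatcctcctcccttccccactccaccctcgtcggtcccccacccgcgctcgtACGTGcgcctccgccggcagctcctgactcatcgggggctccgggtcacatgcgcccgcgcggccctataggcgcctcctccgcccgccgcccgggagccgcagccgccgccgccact
IDH1: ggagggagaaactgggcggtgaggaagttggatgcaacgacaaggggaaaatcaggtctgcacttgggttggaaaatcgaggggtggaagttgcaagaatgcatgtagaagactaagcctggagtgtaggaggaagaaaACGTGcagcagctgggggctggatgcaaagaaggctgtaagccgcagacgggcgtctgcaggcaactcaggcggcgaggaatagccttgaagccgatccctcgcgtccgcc
SUCLA2: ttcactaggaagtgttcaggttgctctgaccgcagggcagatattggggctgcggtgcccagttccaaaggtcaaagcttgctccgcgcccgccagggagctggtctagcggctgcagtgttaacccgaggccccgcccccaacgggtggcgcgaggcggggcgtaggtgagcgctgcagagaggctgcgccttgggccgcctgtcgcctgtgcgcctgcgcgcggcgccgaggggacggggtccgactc
ENO2 and IDH1 each held 1 match, and PFKFB3 and SUCLA2 held 0. The GC share of these windows was 79.2% for PFKFB3, 74.0% for ENO2, 56.8% for IDH1 and 69.2% for SUCLA2. Of the 41 genes, 38 matched a promoter in the RefSeq table, and 11 of those 38 (28.9%) held the motif, compared with 18.5% of 35116 promoters of the same length. The 35116 were not limited to tested genes and were not matched for GC content, so the shares come from unlike sets. The 11 were HK2, GPI, ALDOA, ALDOC, GAPDH, PGK1, ENO2, LDHA, PDK3, PDHB and IDH1. Their median log2 fold change was 0.05 and that of the other 27 was -0.01. A match is a description of these letters only.

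Of the 2 glucose transporter genes examined, SLC2A1, which encodes GLUT1, the transporter of most dividing cells, had the higher transcript level per kilobase. SLC2A1 (ENSG00000117394; chromosome 1, 42925353 to 42958893, GRCh38) stood at 386, 391 and 349.6 CPM in S-AlgLung and 322, 441 and 401 CPM in AlgLung. The gels overlapped, and the log2 fold change was -0.05 (SE 0.25, edgeR adjusted p of 0.972). SLC2A3, the gene of the high-affinity transporter GLUT3, had 94.0, 81.3 and 162 CPM in S-AlgLung against 89.5, 94.9 and 96.8 CPM in AlgLung. Its log2 fold change of 0.26 (SE 0.25, adjusted p = 0.727) rested on S-AlgLung replicate 3: without that library it was -0.13 (adjusted p = 0.778). Per kilobase of exon, SLC2A3 reached 0.312 of the level of SLC2A1 in S-AlgLung and 0.265 in AlgLung. Processed copies of SLC2A3 held reads equal to 6.38% of its own, so part of its signal is uncertain.

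From hexose to triose phosphate, 9 enzyme genes had a median log2 fold change of 0.07. Without S-AlgLung replicate 3 this median was 0.16, with 8 of the 9 above 0, beside -0.046 over all tested genes. HK1, the housekeeping hexokinase, was at 148, 219 and 118 CPM in S-AlgLung and 138, 188 and 184 CPM in AlgLung (log2 fold change -0.07, SE 0.26). HK2, the inducible hexokinase favoured by many tumours, was at 20.3, 21.1 and 32.0 CPM in S-AlgLung and 25.2, 24.4 and 21.6 CPM in AlgLung. In both hexokinase genes S-AlgLung held values below and above the AlgLung range, with S-AlgLung replicate 1 inside it for HK1. S-AlgLung replicate 3 was lowest for HK1 and highest for HK2. The 3 phosphofructokinase genes, which encode the committing step of glycolysis, were all expressed. PFKP averaged 338 ± 43.9 CPM in S-AlgLung and 298 ± 36.8 CPM in AlgLung (SD, n = 3 each). PFKL averaged 218 ± 70.1 and 226 ± 39.3 CPM and PFKM 75.1 ± 14.5 and 71.4 ± 5.84 CPM, S-AlgLung before AlgLung in each pair. None of the 3 passed, with adjusted p of 0.832 to 0.969.

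ALDOC, the aldolase best known from brain, had the highest log2 fold change of the 41 genes. It stood at 157, 213 and 123 CPM in S-AlgLung and 83.8, 129.8 and 100.3 CPM in AlgLung. The log2 fold change was 0.65, with an SE of 0.26 and an adjusted p of 0.185. S-AlgLung replicate 3 fell below AlgLung replicate 2, so the gels overlapped. Without S-AlgLung replicate 3, ALDOC was called higher, at 0.79 (adjusted p = 0.00495), the only one of the 41 genes called in any alternative; in that fit 4.75% of all tested genes were called higher and 3.53% lower (8.28% in either direction). A gene on the opposite strand shares exon sequence with ALDOC and had 0.366 of its reads. ALDOA, the main aldolase of most tissues, averaged 3201 ± 1089 CPM in S-AlgLung and 2899.8 ± 575 CPM in AlgLung, and GPI, the isomerase that makes fructose 6-phosphate, 1688 ± 431 and 1713 ± 314 CPM. TPI1, which interconverts the triose phosphates, averaged 2707 ± 1040.4 CPM in S-AlgLung and 2490.2 ± 595 CPM in AlgLung. A read-through gene on the same strand carried 0.998 of the reads counted for ALDOA, so those reads cannot be assigned to one of the pair.

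PFKFB3 and PFKFB4 make and remove fructose 2,6-bisphosphate, the activator of phosphofructokinase. PFKFB3 (ENSG00000170525; chromosome 10, 6144934 to 6254644) was at 271, 238 and 309.8 CPM in S-AlgLung and 159.6, 199 and 175 CPM in AlgLung. Every S-AlgLung library exceeded every AlgLung library, at a 1.53-fold higher mean (log2 fold change 0.62, SE 0.24), yet the adjusted p of 0.188 missed the threshold. Leaving out each library in turn kept the difference between 0.48 and 0.70. PFKFB4 was at 43.0, 33.3 and 40.1 CPM in S-AlgLung and 30.8, 46.5 and 35.7 CPM in AlgLung, with overlapping gels (0.04 on the log2 scale, SE 0.22, adjusted p = 0.972).

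**Figure D2:**
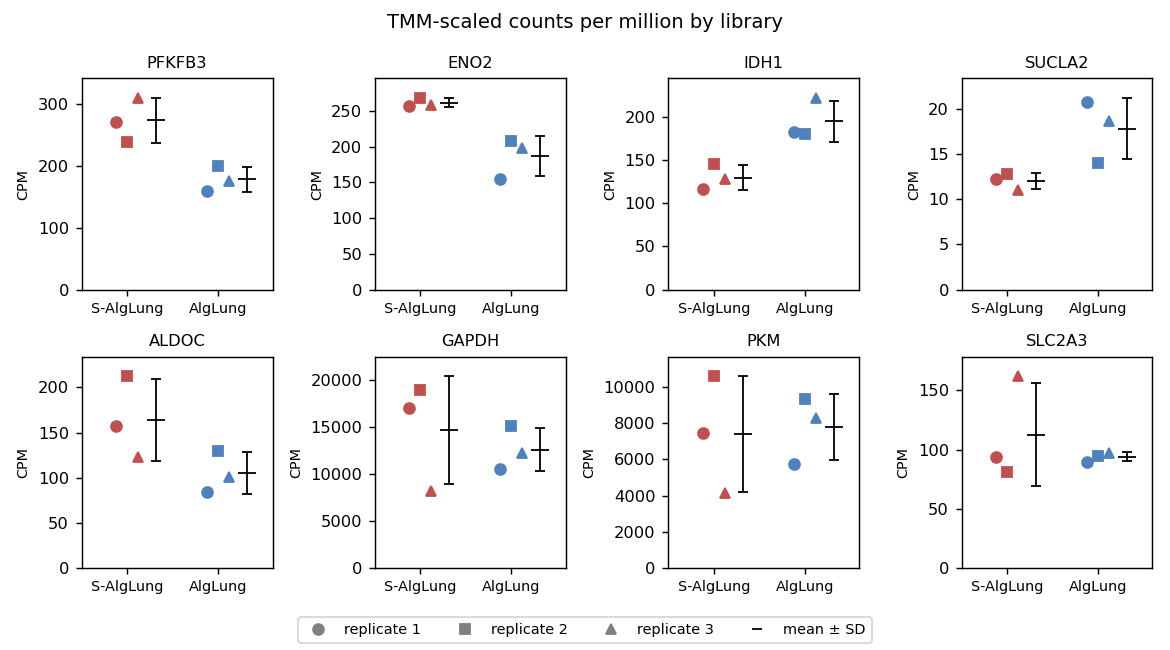
TMM-scaled CPM (y axes, starting at 0) of 8 genes in each library, S-AlgLung left and AlgLung right, with the replicate shown by symbol and the mean ± SD of 3 libraries as a bar. The top row holds the 4 genes whose gels do not overlap; in the bottom row the S-AlgLung triangle (replicate 3) is lowest for ALDOC, GAPDH and PKM within its gel and highest for SLC2A3.

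The steps from triose phosphate to pyruvate held 6 genes, with a median log2 fold change of 0.09. Without S-AlgLung replicate 3 this median was 0.29, with 5 of the 6 above 0. GAPDH, the oxidising step and a common loading control, ranked first per kilobase, at 6133 CPM per kb in S-AlgLung and 5249.7 CPM per kb in AlgLung. Its level was 16971, 18954 and 8162 CPM in S-AlgLung and 10483, 15048 and 12204 CPM in AlgLung. S-AlgLung replicates 1 and 2 were above all AlgLung libraries and replicate 3 below them, and the log2 fold change was 0.22 (SE 0.33, with an adjusted p of 0.853). PKM, pyruvate kinase, was also lowest in S-AlgLung replicate 3, at 7470.1, 10589.8 and 4160.2 CPM in S-AlgLung and 5746, 9331 and 8262 CPM in AlgLung (log2 fold change -0.07, SE 0.33). The counts do not separate the M1 and M2 splice forms of PKM. ENO1, the widespread enolase, averaged 2852 ± 1149.8 CPM in S-AlgLung and 2931 ± 746 CPM in AlgLung. PGAM1, phosphoglycerate mutase, averaged 295 ± 55.3 and 358 ± 54.7 CPM (log2 fold change -0.28, adjusted p = 0.714).

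ENO2 and PGK1 were the members of this stretch with the highest fold changes. ENO2 (ENSG00000111674; chromosome 12, 6913745 to 6923698), an enolase named for neurons, was at 257, 268 and 258 CPM in S-AlgLung and 154, 207 and 198 CPM in AlgLung. The gels did not overlap and the S-AlgLung libraries lay close together (SD 6.13 CPM, against 28.1 CPM in AlgLung), but the log2 fold change of 0.49 (SE 0.24) had an adjusted p of 0.348. PGK1, the first ATP-yielding step, was at 1604, 2701 and 2338 CPM in S-AlgLung and 1345, 1790.3 and 1689.9 CPM in AlgLung. AlgLung replicates 2 and 3 exceeded S-AlgLung replicate 1, and the log2 fold change was 0.46 (SE 0.28, adjusted p = 0.498).

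None of the 4 genes of lactate formation and export passed the test, and the gels overlapped for each. Their median log2 fold change was 0.20, and 0.18 without S-AlgLung replicate 3. LDHA, the subunit that favours lactate formation, was at 1029.9, 1614 and 1579 CPM in S-AlgLung and 1228, 1483 and 1606 CPM in AlgLung (-0.03 on the log2 scale, SE 0.28, adjusted p = 0.984). LDHB, the subunit prominent in heart, was at 550.1, 847 and 540.3 CPM in S-AlgLung and 486, 551 and 572 CPM in AlgLung (0.27, SE 0.26, adjusted p = 0.740). A same-strand gene carried 0.998 of the LDHB reads, so they cannot be given to LDHB alone. SLC16A3, the lactate exporter MCT4, averaged 970.3 ± 179 CPM in S-AlgLung and 800.2 ± 124 CPM in AlgLung (0.28, adjusted p = 0.728). It shares exon bases with CSNK1D on the other strand, which had 0.494 of its reads. SLC16A1, the transporter MCT1, averaged 30.8 ± 3.63 and 28.0 ± 3.77 CPM, and ranked well below SLC16A3 per kilobase (4.85 against 105.1 CPM per kb in S-AlgLung, 4.41 against 86.6 in AlgLung).

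Ratios of paired paralogues within a library do not depend on how libraries are scaled, and 5 were compared. The part of base composition in these ratios was not tested. The GC content of the longest transcript was lower in SLC2A3 (45.8%) than SLC2A1 (54.8%) and in HK2 (51.2%) than HK1 (52.95%). It was also lower in PFKP (57.5%) than PFKL (64.1%) and in LDHA (44.0%) than LDHB (46.5%), but higher in ENO2 (55.0%) than ENO1 (52.75%). With 3 libraries against 3, the smallest p that the two-sided exact permutation test can give is 0.1, so no ratio could pass. The log2 ratio of ENO2 to ENO1 reads was -3.39, -3.92 and -2.79 in S-AlgLung and -3.78, -4.12 and -3.96 in AlgLung, a difference of 0.58 (exact permutation p = 0.2). For LDHA over LDHB it was 0.91, 0.93 and 1.55 in S-AlgLung and 1.34, 1.43 and 1.49 in AlgLung, a difference of -0.29 (exact permutation p = 0.4). In both pairs S-AlgLung replicate 3 gave the highest of the 6 ratios. It did so for SLC2A3 over SLC2A1 (-1.11, with the other 5 libraries between -2.27 and -1.85), HK2 over HK1 (-1.88, others -3.38 to -2.45) and PFKP over PFKL (1.22, others 0.25 to 0.57). The differences between gels were 0.24, 0.12 and 0.28 for these 3 pairs (exact permutation p = 0.8, 0.8 and 0.5). Without S-AlgLung replicate 3 those of SLC2A3 over SLC2A1 and HK2 over HK1 changed sign, to -0.113 and -0.295 (exact permutation p = 0.5 for each). In the same omission the difference was 0.009 for PFKP over PFKL, 0.295 for ENO2 over ENO1 (exact permutation p = 0.4) and -0.50 for LDHA over LDHB (exact permutation p = 0.1). For LDHA over LDHB, S-AlgLung replicates 1 and 2 lay below all AlgLung ratios. Leaving out other libraries also moved these 3 differences, which ranged from 0.009 to 0.495, from 0.295 to 0.861 and from -0.501 to -0.179 over the 6 omissions. The exact permutation p was also 0.1 for PFKP over PFKL without S-AlgLung replicate 1 and for ENO2 over ENO1 without S-AlgLung replicate 2.

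**Figure D3:**
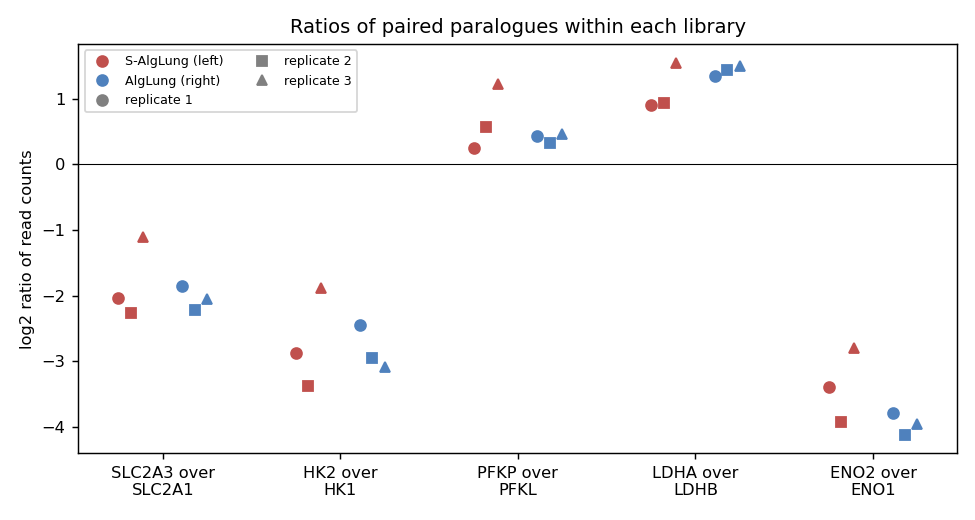
Log2 ratio of read counts (y axis) for 5 pairs of paralogues, S-AlgLung in red on the left of each pair and AlgLung in blue on the right, with replicates by symbol. S-AlgLung replicate 3 (red triangle) is the highest point of every pair.

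At pyruvate entry, 5 members had log2 fold changes between -0.08 and 0.21 and adjusted p of 0.808 or more. Their median was 0.03, and -0.19 without S-AlgLung replicate 3, with 1 of the 5 then above 0. PDK1, a kinase that switches off pyruvate dehydrogenase and a known HIF-1 target, was at 10.5, 9.21 and 18.1 CPM in S-AlgLung and 13.9, 9.40 and 12.4 CPM in AlgLung. The antisense RNA PDK1-AS1 had 0.630 of its reads. PDHA1, the catalytic subunit of the complex, was at 48.4, 61.1 and 65.1 CPM in S-AlgLung and 60.4, 60.0 and 63.6 CPM in AlgLung. PDK2 averaged 69.1 ± 25.2 CPM in S-AlgLung and 59.9 ± 10.3 CPM in AlgLung, PDK3 16.5 ± 2.42 and 17.3 ± 3.66 CPM, and PDHB, the E1 beta subunit, 61.6 ± 10.7 and 60.3 ± 12.5 CPM. The gels overlapped for all 5.

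Among 13 TCA cycle members, 9 had log2 fold changes below 0 and 4 above, with a median of -0.01. Without S-AlgLung replicate 3 the median was -0.14, with 5 of the 13 above 0. Differences between the steps were not tested. IDH1 (ENSG00000138413; chromosome 2, 208236229 to 208266074), the cytosolic NADP-dependent isocitrate dehydrogenase, was at 116, 145 and 128 CPM in S-AlgLung and 183, 179.6 and 222 CPM in AlgLung. All S-AlgLung values lay below all AlgLung values (log2 fold change -0.59, SE 0.24), but the adjusted p was 0.205. Leaving out each library in turn gave -0.68 to -0.51. SUCLA2 (ENSG00000136143; chromosome 13, 47745736 to 48037968), the ATP-forming subunit of succinyl-CoA synthetase, was at 12.2, 12.8 and 11.1 CPM in S-AlgLung and 20.7, 14.1 and 18.7 CPM in AlgLung (-0.57, SE 0.22, adjusted p = 0.175). It had 2189 reads in the 6 libraries, and part of its exon sequence overlaps another gene, so its reads are uncertain. SUCLG2, the GTP-forming counterpart, averaged 29.4 ± 6.01 CPM in S-AlgLung and 29.5 ± 3.60 CPM in AlgLung, and the shared subunit SUCLG1 49.5 ± 12.3 and 49.7 ± 12.0 CPM.

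The other genes listed for the TCA cycle had log2 fold changes between -0.13 (FH) and 0.19 (CS). CS, citrate synthase, was at 246, 278 and 223 CPM in S-AlgLung and 181, 246 and 228 CPM in AlgLung (0.19, SE 0.24). A same-strand gene sharing exon bases with CS had 0.61 of its reads. SDHA, the flavoprotein of succinate dehydrogenase, was at 118, 153 and 109 CPM in S-AlgLung and 108, 143 and 130.5 CPM in AlgLung (0.00 on the log2 scale, SE 0.24, adjusted p = 0.999). A same-strand gene overlapping SDHA had 1.46 times its reads, and SDHA pseudogenes 14.3%. MDH2, mitochondrial malate dehydrogenase, was at 322, 393 and 212 CPM in S-AlgLung and 264, 374 and 308 CPM in AlgLung (-0.03, SE 0.27). The other members (IDH2, IDH3A, OGDH, SDHB, FH and MDH1) had adjusted p of 0.838 to 0.997. The mitochondrial NADP-dependent IDH2 averaged 72.5 ± 18.5 CPM in S-AlgLung and 64.4 ± 12.8 CPM in AlgLung, and FH, fumarase, 31.4 ± 8.06 and 34.4 ± 4.33 CPM.

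Summed over the 23 genes from glucose transport to lactate, levels were 42524, 51711 and 26234 CPM in S-AlgLung and 29863, 43866 and 37089 CPM in AlgLung. The 18 pyruvate entry and TCA genes summed to 1469, 1783 and 1360.0 CPM in S-AlgLung and 1381, 1693 and 1637 CPM in AlgLung. In both sums S-AlgLung replicate 3 was the lowest library and S-AlgLung replicate 2 the highest. All 41 genes took 4.02%, 4.78% and 3.02% of counts in S-AlgLung and 3.44%, 4.41% and 4.04% in AlgLung.

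The spread within S-AlgLung moved with base composition, which was not separated here from expression level. Of the 41 genes, 12 had their lowest of 6 values in S-AlgLung replicate 3 (HK1, GPI, PFKL, ALDOA, TPI1, GAPDH, ENO1, PKM, PDK2, OGDH, SUCLA2 and MDH2) and 11 their highest (SLC2A3, HK2, PFKFB3, SLC16A1, PDK1, PDHA1, PDHB, IDH3A, SUCLG2, SDHB and MDH1). Among all tested genes 21.3% were lowest and 29.01% highest there, beside 29.3% and 26.8% of the 41. AlgLung replicate 1 also held the lowest value of 12 of the 41 (29.3%), where 19.3% of all tested genes were lowest. S-AlgLung replicate 2 held the highest value of 20 of the 41 (48.8%), where 14.2% of all tested genes were highest. The GC content of the longest transcript had a median of 53.8% in the 12 genes lowest in S-AlgLung replicate 3 and 45.8% in the 11 highest there. The median of their mean AlgLung levels was 1014 CPM in the 12 and 45.6 CPM in the 11, so these sets differed in level too. Across the 41 genes, the log2 level in replicate 3 minus the mean of replicates 1 and 2 had a Pearson correlation of -0.68 with GC content (Spearman -0.66), and across 17835 tested genes -0.43. These genes share libraries and are not independent replicates. All 6 libraries leaned one way or the other: over the 41 genes, the deviation from the mean of the 6 correlated with GC content at 0.76, 0.49 and -0.53 in S-AlgLung replicates 1, 2 and 3, and at -0.51, 0.57 and -0.62 in AlgLung replicates 1, 2 and 3. With an offset for GC content in each library, edgeR again called 0 of the 41, where 2.96% of all tested genes were called higher and 2.24% lower. The largest log2 fold change was then 0.55 for ALDOC, and the smallest adjusted p was 0.117 for IDH1. The part of RNA quality in the spread between libraries was not tested.

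**Figure D4:**
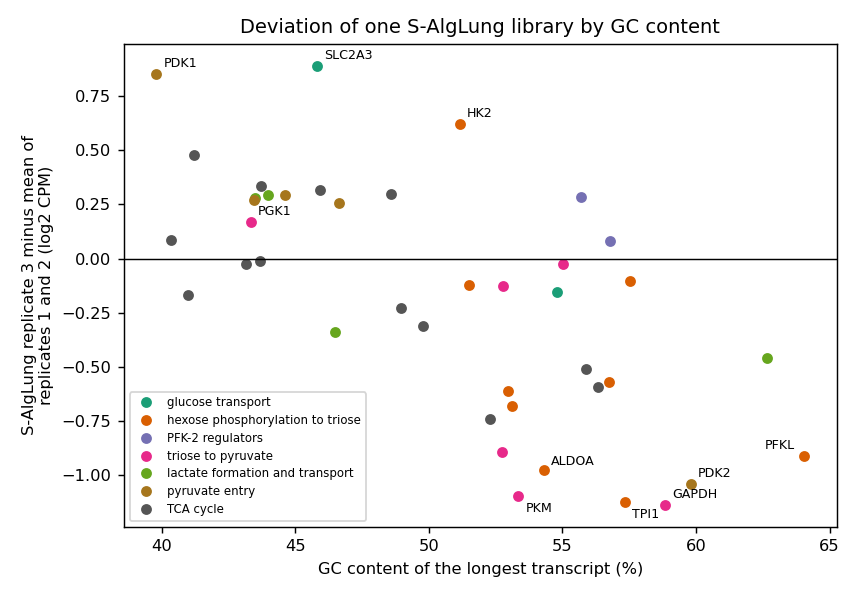
Log2 CPM of each of the 41 genes in S-AlgLung replicate 3 minus the mean of S-AlgLung replicates 1 and 2 (y axis) against the GC content of its longest transcript (x axis), coloured by step. Genes above 50% GC lie mostly below 0, down to -1.14 for GAPDH, and SLC2A3, at 45.8% GC, is the highest at 0.89.

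Other genes of the pathway were taken from 7 lists of 79 genes, of which 67 had enough reads to test. Of these 67, PCK1 was called higher in S-AlgLung and PDK4 and TIGAR lower, beside 3.15% and 1.99% of all tested genes. PCK1 (chromosome 20, 57561080 to 57568121), the cytosolic enzyme that commits carbon to gluconeogenesis, was at 0.997, 1.01 and 4.05 CPM in S-AlgLung and 0.307, 0.405 and 0.290 CPM in AlgLung. All S-AlgLung values were higher (2.61 on the log2 scale, SE 0.51, edgeR adjusted p = 0.00142), but the gene had only 184 reads in 6 libraries. Without S-AlgLung replicate 3 the log2 fold change was 1.55 (adjusted p = 0.0324), a 2.93-fold difference in place of 6.09-fold. PCK2, the mitochondrial form, was at 0.06 (adjusted p = 0.950).

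PDK4, the starvation-induced kinase of pyruvate dehydrogenase, was lower in every S-AlgLung library. PDK4 (chromosome 7, 95583499 to 95596516) stood at 43.0, 40.6 and 39.3 CPM in S-AlgLung and 95.6, 69.1 and 87.3 CPM in AlgLung (-1.03 on the log2 scale, SE 0.22, edgeR adjusted p = 0.00349). It was called lower in all 14 alternatives, including the offset for GC content (-0.87, adjusted p = 0.00467). The 3 other PDK genes, PDK1, PDK2 and PDK3, did not pass, at 0.08, 0.21 and -0.07; whether PDK4 differed from them was not tested. TIGAR (chromosome 12, 4307763 to 4360028), a p53-induced fructose-2,6-bisphosphatase that lowers flux through glycolysis, was at 7.98, 10.1 and 8.67 CPM in S-AlgLung and 16.9, 13.2 and 17.1 CPM in AlgLung (-0.82, SE 0.22, adjusted p = 0.0258). TIGAR no longer passed when S-AlgLung replicate 1 (log2 fold change -0.74, adjusted p = 0.127), AlgLung replicate 1 (-0.81, 0.0876) or AlgLung replicate 3 (-0.80, 0.136) was left out. A same-strand gene shares exon bases with TIGAR and had 0.694 of its reads.

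**Figure D5:**
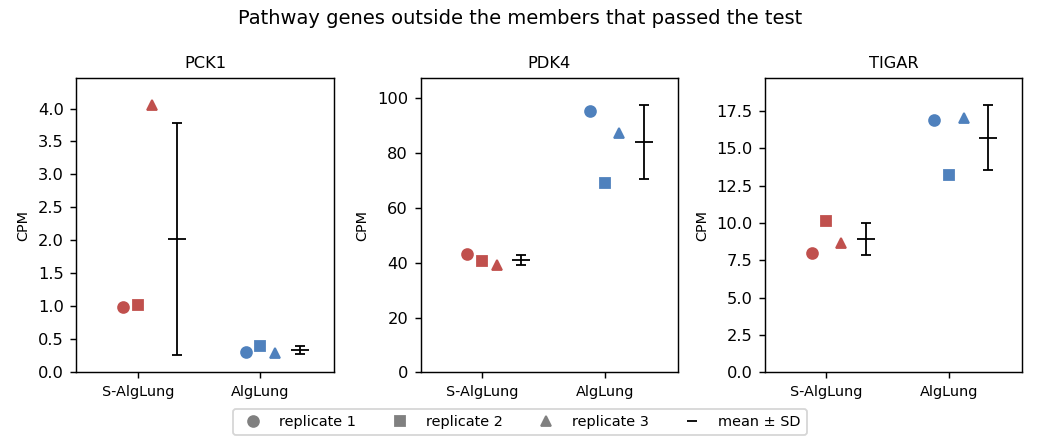
TMM-scaled CPM (y axes, starting at 0) of PCK1, PDK4 and TIGAR in each library, S-AlgLung left and AlgLung right, with the mean ± SD of 3 libraries as a bar. PCK1 lies above all AlgLung values in S-AlgLung, with replicate 3 at 4.05 CPM, and PDK4 and TIGAR lie below all AlgLung values.

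No gene was called in the 4 remaining groups. In the TCA cycle list of 11 tested genes the smallest p belonged to IDH3G (log2 fold change 0.33, adjusted p = 0.649). SSR4, on the other strand, shares exon bases with IDH3G and had 4.81 times its reads. Among the 7 pentose phosphate genes the smallest p belonged to RPE (-0.37, adjusted p = 0.449). The pentose phosphate genes PGD and TKT were abundant in both gels and did not pass (adjusted p of 0.950 and 0.839).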

How the data were processed

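RNA from 6 libraries of A549 cells was sequenced. STAR 2.7.3a, featureCounts and the build GRCh38 are named in the submitters' processing notes as what the authors used. The version, annotation and strand setting of featureCounts were not given in the sources used here. A gene opposite GAPDH, sharing 422 exon bases with it, was given 852327 reads, so genes on opposite strands may share reads. The deposited values are raw counts, whole numbers with no normalization, beside a summed exon length for each gene. AlgLung replicate 1 had 2 columns with 0 differing genes and was counted once. Symbols came from a gene name table, in which 62625 of 62703 identifiers matched.

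Genes were kept with filterByExpr (minimum count 10), scaled by TMM and tested with edgeR 4.0.16 (quasi-likelihood F test, R 4.3.3) over 18544 genes, Benjamini-Hochberg adjusted over all of them, with an adjusted p under 0.05 called. Standard errors were derived from the F statistic and the fold change. Levels between genes are CPM per kb of exon. Counting precision follows from 22978408 to 26495444 reads per library; the biological coefficient of variation was 0.215. The script was tested on 3 simulated sets of 200 changed genes (18297 genes tested). Of the 41 genes, 13 overlap a gene with at least 25% of their reads.

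Values per library were given for genes whose gels did not overlap, for called genes and for 16 genes chosen by name. In other pathway lists, called genes and the gene with the smallest p were named, except for genes not reported here. ALDOC, PGK1, PCK2, PGD and TKT were named after their values were seen. The genes and lists were chosen with earlier results of these data known. Alternatives were DESeq2 1.42.0 size factors or Wald test, total counts, limma-voom (limma 3.58.1), other filters, a replicate block, each library left out and, chosen after seeing the data, an offset for GC content (loess span 0.3, GENCODE transcripts, 96.2% of tested genes with a value).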

Additional observations from a re-analysis of the deposited data

How the results depend on the processing

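The absence of calls among the 41 genes held under 13 of 14 alternatives; leaving out each library in turn gave 0 to 1 genes called higher (ALDOC, without S-AlgLung replicate 3) and 0 to 0 called lower. Signs of small differences were not stable: 77 of 574 refitted log2 fold changes had the opposite sign, 57 of them with a library left out, and 28 of the 41 genes had at least 1 such change. Scaling by total counts moved the median of all genes to -0.07, against 0.03, and gave HK2 -0.029, PFKM -0.031, TPI1 -0.009, PFKFB4 -0.042, PDHB -0.047, IDH3A -0.084 and OGDH -0.040. The offset for GC content, chosen after seeing the data, gave HK2 -0.053, PFKM -0.008, PFKFB4 -0.043, OGDH -0.031, SUCLG1 0.098 and SUCLG2 0.092. IDH3A was -0.012 with DESeq2 size factors, -0.009 with no filter, -0.012 in the DESeq2 Wald test, -0.002 in limma-voom and -0.001 with the replicate block. With a mean of at least 1 CPM, SUCLG2 and SDHA were 0.00. The cause was not tested.

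With each library left out in turn, log2 fold changes ranged for SLC2A1 from -0.21 to 0.051, SLC2A3 -0.13 to 0.45, HK1 -0.36 to 0.085, HK2 -0.23 to 0.16, GPI -0.18 to 0.14, PFKL -0.20 to 0.16, PFKM -0.096 to 0.18, ALDOA -0.020 to 0.37, TPI1 -0.090 to 0.38 and PFKFB4 -0.13 to 0.22. They ranged for GAPDH from -0.004 to 0.48, ENO1 -0.39 to 0.18, PKM -0.42 to 0.19, LDHA -0.18 to 0.15, PDK1 -0.31 to 0.26, PDK3 -0.23 to 0.041, PDHA1 -0.19 to 0.039 and PDHB -0.18 to 0.17. For the TCA genes the ranges were IDH2 -0.046 to 0.34, IDH3A -0.15 to 0.082, OGDH -0.12 to 0.22, SUCLG1 -0.24 to 0.17, SUCLG2 -0.22 to 0.089, SDHA -0.17 to 0.085, SDHB -0.17 to 0.084, FH -0.34 to 0.033, MDH1 -0.23 to 0.057 and MDH2 -0.24 to 0.15. The log2 ratio difference ranged from -0.11 to 0.47 for SLC2A3 over SLC2A1 and from -0.295 to 0.46 for HK2 over HK1. Other pathway genes called higher ranged from 1 to 3 (3 without S-AlgLung replicate 2), and called lower from 1 to 5 (1 without S-AlgLung replicate 1, AlgLung replicate 1 or AlgLung replicate 3, and 5 without S-AlgLung replicate 3).

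Nothing in the labels states a pairing, so the replicate numbers were not taken as pairs. Deviations of same-numbered libraries had correlations of 0.082, 0.398 and 0.124, and those of differently numbered libraries ran from -0.428 to 0.242. A replicate block called 800 genes higher and 500 lower in all, against 584 and 369 without it. It called 0 of the 41 genes and, among other pathway genes, 1 higher and 3 lower, against 1 and 2 without it. Depth limits PCK1, with 184 reads. Among the 41, ALDOA, CS, GPI, LDHB and SDHA overlap a same-strand gene with at least 25% of their reads. An opposite-strand gene does so for 9: ALDOC, CS, GAPDH, IDH3A, PDHB, PDK1, PDK2, SLC16A3 and SUCLA2.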
